A study of Mus musculus with 18 samples.

Results

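Small RNA was compared between a pair of mouse cell populations in which the same gene, Erh, had been targeted with Cas9 and different guide RNAs. The comparison takes the 3 libraries of the population made with ERH guide 2 against the 3 libraries of the population made with ERH guide 1, 6 of the 18 libraries of the series, and uses every miRNA precursor in the count table except the spike-ins. The table lists 1006 precursors, of which 620 had a count in at least 1 of the 6 ERH libraries and 273 passed the filter on low counts and were tested. Of those not tested, 386 had no count in any ERH library and 347 had some, and all untested precursors together held at most 0.0179% of the counts of an ERH library. The question was how closely 2 separately edited and sorted populations of one genotype match each other, miRNA by miRNA.

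The cells were Baf3, an established mouse pro-B cell line that depends on interleukin-3 and was grown with it in excess. They carried fluorescent reporters for altered forms of miR-15a and miR-16, were stably transduced with Cas9 and 1 guide, and were selected with puromycin. Erh was the target of both ERH guides, Rag1 of the control guides, and Safb together with Safb2 (SAFB below) of the SAFB guides, with 2 guides and hence 2 populations for each genotype and no further treatment. For ERH and SAFB, cells whose miR-15a reporter had lost its repression were sorted in bulk, not cloned, and expanded for RNA extraction. Each population gave 3 libraries, 1 in each of 3 labelled batches. A p-value therefore measures the spread between libraries of a population, which may be technical, and not the spread between independently edited populations, of which there was 1 for each guide. The labels do not say how the control populations were sorted or what share of cells carried an edit.

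ERH is a small, highly conserved nuclear protein that binds DGCR8, the partner of the nuclease Drosha in the Microprocessor, which cuts miRNA hairpins out of primary transcripts. Some hairpins are poor substrates and are cut efficiently only when a good substrate lies beside them on the same transcript, a process called cluster assistance, and ERH and SAFB proteins are known to take part in it. The textbook case is mir-15a, which relies on its neighbour mir-16-1.

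The guides differ in sequence and cut the same stretch of Erh from opposite strands, which is why both are shown. Each is written 5′ to 3′ as given in the labels, in lower case, with the adjoining NGG motif (PAM) that Cas9 needs in capitals, read from the GENCODE M21 transcripts of mouse build GRCm38.
ERH guide 1: agatctacgtgctcctccgtCGG
ERH guide 2: cagcctgttgggcctgccgaCGG
Guide 1 matched the coding strand at chr12:80634452-80634471 and guide 2 the opposite strand at chr12:80634433-80634452. Both sites lay in coding sequence, in exon 4 of Erh-201 and exon 5 of Erh-202, and the 20-base sites shared 1 base. With the cut placed 3 bases from the PAM, guide 1 would cut after coding base 285, the last base of codon 95. Guide 2 would cut after coding base 290, within codon 97, of a reading frame of 104 codons and a stop. The coding strand over both sites is shown with the 5 bases between the cuts in capitals.
Erh coding strand over both guide sites: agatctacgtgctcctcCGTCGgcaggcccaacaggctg
Guide 1 matched transcripts of 4 annotated genes and guide 2 those of 3; both sets included Gm10131 and Gm13831, and the additional match of guide 1 was AC122481.2. The Erh mRNA is not part of a small RNA library, so the edit itself could not be checked in these data.

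The miRNAs on which the results turn are shown next as RefSeq mature sequences (GRCm38.p6), with the seed, bases 2 to 8, in capitals. The seed is the part that pairs with target mRNAs. The first group holds miRNAs that were raised in both ERH populations and for which the guides gave the largest differences among abundant miRNAs.
miR-218-5p: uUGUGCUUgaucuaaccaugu
miR-148a-3p: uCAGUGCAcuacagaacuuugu
miR-34a-5p: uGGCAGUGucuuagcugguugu
miR-196b-5p: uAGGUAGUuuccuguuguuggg
miR-10a-5p: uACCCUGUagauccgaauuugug
miR-9-5p: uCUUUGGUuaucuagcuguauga
None of these 6 shares its seed with another of the 6. A pair of relatives is shown because they bear on how reads were assigned.
miR-196a-5p: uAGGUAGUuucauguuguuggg
miR-10b-5p: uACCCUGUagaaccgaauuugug
miR-10a-5p and miR-10b-5p share a seed and differ by U12A, and miR-196b-5p and miR-196a-5p share a seed and differ by C12A (base of the first, position from its 5′ end, base of the second), so the split of reads within each pair is uncertain. The last group holds miRNAs that fell in both ERH populations, with mir-16 as the neighbour of mir-15a and mir-15b.
miR-425-5p: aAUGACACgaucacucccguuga
miR-15a-5p: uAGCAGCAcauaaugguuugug
miR-15b-5p: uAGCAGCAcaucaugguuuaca
miR-16-5p: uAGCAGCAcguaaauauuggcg
miR-15a, miR-15b and miR-16 share 1 seed. Each entry of the table counts a precursor, with both arms and all gene copies together; mir-218 sums Mir218-1 and Mir218-2, mir-9 sums 3 genes and mir-16 sums 2.

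The 6 ERH libraries held 2699323 to 3909004 miRNA counts, within the range of the other libraries or below it, and 430 to 454 precursors were detected in each. The 10 most abundant took 70.5% to 71.3% of the counts. The scaling factors (trimmed mean of M-values, TMM) were 1.07 to 1.20 in ERH libraries and 0.888 to 0.985 in the others. Leukocyte markers (4 of 4) and B-lymphoid precursor markers (5 of 5) were tested and had counts in all ERH libraries; mir-150 was scarce, at 4.67 to 11.9 CPM, and the other 8 were at 651 CPM or more. Of the lists of other cell types, the stromal and endothelial list summed to 2956 to 3473 CPM, nearly all of it mir-126a, the neural list to 2748 to 4491 CPM and the epithelial list to 147 to 183 CPM, and the muscle, erythroid and embryonic stem lists had no member above 10 CPM (counts per 1000000 counts of the TMM-scaled library). The library of batch 1 was the deepest of each ERH population, at 3464464 counts with guide 1 and 3909004 with guide 2. With guide 1 it also had the most precursors detected, 454 beside 430 and 431.

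Across miRNAs the ERH populations had nearly the same profile. The 10 most abundant miRNAs held the same ranks, 1 to 10, in both, led by mir-16, mir-142a and let-7i, and their log2 differences (guide 2 minus guide 1) ran from -0.11 to 0.07. mir-16 stood at 230163, 221463 and 227733 CPM with guide 1 and at 242005, 201986 and 211031 CPM with guide 2, so the guide 2 libraries lay on both sides of the guide 1 libraries. Over the 273 tested miRNAs the log2 CPM means of the populations gave a Pearson's r of 0.995 and a rank correlation (Spearman) of 0.991, a description across miRNAs, which share a library and are not independent replicates. The median absolute difference between guides was 0.14 in ERH, beside 0.15 between the control guides and 0.16 between the SAFB guides.

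Libraries of different ERH populations lay about as close as libraries of one population. Over the 114 miRNAs with a mean of at least 100 CPM, the median absolute log2 difference between 2 libraries of guide 1 was 0.12 to 0.15, and between 2 libraries of guide 2 it was 0.17 to 0.24. Between a guide 1 and a guide 2 library it was 0.11 to 0.25, with a median of 0.13 over the 9 pairs. The guide 2 libraries thus lay farther from each other than the guide 1 libraries did. In the control populations the same measure was 0.12 to 0.14 within guide 1 and 0.13 to 0.20 within guide 2, and in the SAFB populations 0.13 to 0.18 within guide 1 and 0.12 to 0.17 within guide 2.

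One miRNA passed the test between the ERH populations: mir-218 was lower with guide 2. In edgeR's quasi-likelihood test with Benjamini-Hochberg adjustment it was the 1 call among 273, or 0.366% of the miRNAs tested. An unadjusted p under 0.05 was found for 18 (6.59%), 10 higher and 8 lower with guide 2. The 3 libraries of one guide did not overlap the 3 of the other for 23 miRNAs (8.42%), 13 higher and 10 lower, beside 24 (8.79%) between the control guides and 20 (7.33%) between the SAFB guides. The same test called 0 miRNAs between the control guides and 0 between the SAFB guides, with 7 and 10 at an unadjusted p under 0.05, and DESeq2 also called 0 in each. All these directions are relative to the TMM scale, on which the median log2 difference between the ERH guides was -0.0014. With the spike-ins as the scale that median was 0.63 and 110 miRNAs were called, 109 of them higher with guide 2. That scale also brought calls between the control guides, whose number is given under how the results depend on the processing.

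**Figure D1:**
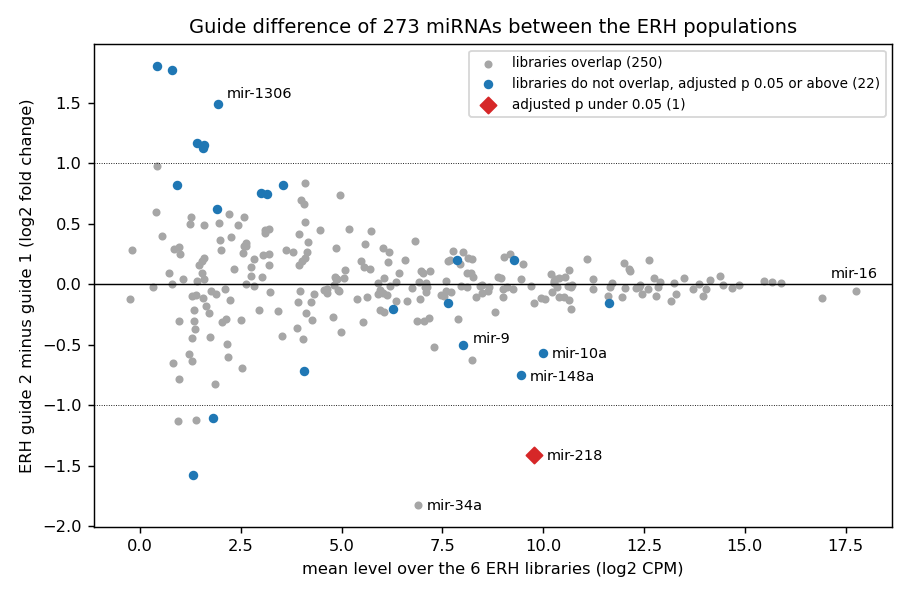
Difference between the ERH populations for each of the 273 tested miRNAs (vertical axis, log2 fold change, guide 2 minus guide 1) against mean level over the 6 ERH libraries (horizontal axis, log2 CPM). Grey points have overlapping libraries, blue points do not overlap but have an adjusted p of 0.05 or above, and the red diamond is mir-218 at -1.41; the spread widens toward low levels, and abundant miRNAs such as mir-16 lie near 0.

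mir-218 is processed from introns of Slit2 (Mir218-1, chr5:48223942-48224051) and Slit3 (Mir218-2, chr11:35616816-35616925), genes of axon guidance, and is best known from motor neurons. Its level was 1395, 1411 and 1018 CPM in the guide 1 libraries and 676, 391 and 370.3 CPM in the guide 2 libraries of batches 1, 2 and 3. The populations did not overlap: the lowest guide 1 library lay above the highest guide 2 library. The log2 difference was -1.41 (SE 0.23, 95% interval -1.89 to -0.93; edgeR adjusted p = 0.0016), and within batches 1, 2 and 3 it was -1.04, -1.85 and -1.46. Scaled to the spike-ins the difference was -0.76 (edgeR adjusted p = 0.0499), which was 1.39 below the median of all miRNAs on that scale. In polyclonal bulk RNA, fewer cells with the miRNA and less of it per cell cannot be told apart.

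Both ERH populations had far more mir-218 than control, which averaged 22.3 ± 5.95 CPM (SD, n = 6). The mean was 1274 ± 222 CPM with guide 1 and 479 ± 171 CPM with guide 2 (SD, n = 3 each). Against the control population of the same guide number, mir-218 rose by 5.66 (SE 0.29) with guide 1 and by 4.64 (SE 0.28) with guide 2 on the log2 scale (edgeR adjusted p = 1.04e-12 and 1.99e-11). On the linear scale the rise with guide 2 was 36.5% of that with guide 1, and the rank of mir-218 went from 52 to 73. The test of the difference in rise, which subtracts the difference between the control guides, gave -1.02 with an unadjusted p of 0.0123 and an adjusted p of 0.994 in edgeR. Control and ERH guides share only a label number. With the control populations exchanged, the difference between the control guides would be added, so this test depends on the pairing by number. A comparison added after the data were seen took the SAFB guides in place of the control guides. Also paired by number, it gave -1.36, with an unadjusted p of 0.00047 and an adjusted p of 0.127 in edgeR. The difference between the ERH populations therefore passed the test, and its excess over the difference between guides of another genotype did not pass after adjustment.

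mir-218 was one of 8 miRNAs in a list of neural markers, and no other member was called between the ERH populations. The summed list was 3651 to 4491 CPM with guide 1 and 2748 to 3486 CPM with guide 2, beside 1867 to 2280 CPM in control. mir-128, the most abundant of the list, was at 2461 ± 272 and 2394 ± 224 CPM (SD, n = 3 each). mir-9 was at 304 CPM with guide 1 and 215 CPM with guide 2, with no overlap (difference -0.50), and the scarce mir-153 was at 5.12 and 3.73 CPM, with overlap (difference -0.49). The other tested members, mir-138 (-0.05) and mir-129 (0.19), overlapped. mir-124, the miRNA that defines neurons, was 0 in all guide 1 libraries and 0.479 to 1.83 CPM with guide 2, and mir-137 was 0 in all. Of the 6 members tested, 1 was called between the ERH guides, beside 1 of all 273 tested (0.366%). That call was mir-218 itself, so the count says nothing particular of neural markers. In every ERH library, 4 of the 8 stayed under 10 CPM. The part of other cells in the difference was not tested.

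Of the 121 abundant miRNAs, those of at least 100 CPM in an ERH population, 5 had an unadjusted p under 0.05 between the guides in edgeR. Over all 273 tested it was 18 (6.59%), and 72 of the 121 were lower with guide 2 at any p. The 5 were all lower with guide 2: mir-218, mir-148a, mir-34a, mir-196b and mir-192. Apart from mir-218 they did not pass adjustment. mir-148a (Mir148a, chr6:51269812-51269910, in no annotated host gene), known as a regulator of B cell tolerance and of lipid metabolism, was at 726, 990.2 and 923 CPM with guide 1 and at 464, 604 and 499 CPM with guide 2. These libraries did not overlap, and the difference was -0.75 (SE 0.21; edgeR adjusted p = 0.141). With the control populations paired by number, the difference in rise was close to 0, at -0.12 (edgeR unadjusted p = 0.719). mir-148a was also lower with guide 2 than with guide 1 in each batch of the control and of the SAFB populations. The exchanged pairing would therefore make the difference in rise more negative. With only the 6 ERH libraries in the fit, mir-148a was called (edgeR adjusted p = 0.0409), as it was without the filter on low counts (edgeR adjusted p = 0.000509).

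mir-34a, a target of p53, had the largest difference of the abundant miRNAs and the widest spread. It was at 227, 215 and 112 CPM with guide 1, and at 126, 13.7 and 15.3 CPM with guide 2. The guide 2 library of batch 1 lay within the guide 1 libraries, and the other two lay below all of them. The difference was -1.82 (SE 0.57; edgeR adjusted p = 0.321), and without that guide 2 library it was -3.65 (edgeR adjusted p = 2.0e-05). With all libraries and no filter on low counts it was -1.83 (edgeR adjusted p = 1.76e-13), so the call depends on 1 library and on the filter. Control libraries averaged 7.60 ± 2.49 CPM of mir-34a (SD, n = 6). The relatives of mir-34a differed less between the ERH guides: mir-34b by -0.01, mir-34c by 0.06, mir-449a by -0.14 and mir-449c by -0.42. mir-218 was called whichever of the 6 ERH libraries was left out, with differences from -1.73 to -1.28 and adjusted p of at most 0.0120 in edgeR.

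mir-10a, mir-196b, mir-9 and mir-192 followed at smaller differences, and none of them passed the test. mir-10a, which lies among the Hoxb genes (chr11:96317165-96317274), was at 1087, 1512 and 1049 CPM with guide 1 and at 979, 717 and 764 CPM with guide 2, with no overlap (difference -0.57, SE 0.27; edgeR adjusted p = 0.731). Without the filter on low counts mir-10a was called (difference -0.56; edgeR adjusted p = 0.0272). mir-196b, in an exon of Hoxa9, was at 253, 404 and 433 CPM against 221, 255 and 231 CPM, where the lowest guide 1 library fell within the guide 2 range (difference -0.62, SE 0.22; edgeR adjusted p = 0.561). mir-9, a miRNA of the nervous system, was at 286, 376 and 250.1 CPM against 230.3, 221 and 194 CPM, with no overlap (difference -0.50, SE 0.26; edgeR adjusted p = 0.852). With the control populations paired by number, the difference in rise of mir-9 had the other sign, at 0.29 (edgeR unadjusted p = 0.538). The exchanged pairing would make it negative. In batches 1, 2 and 3 mir-9 also differed by -0.59, -0.19 and -1.55 between the control guides. Between the SAFB guides it differed by -0.73, -1.8e-05 and -0.30. Leaving out each ERH library in turn gave -0.64 to -0.33 for mir-9, the smallest without the guide 1 library of batch 2. mir-192, which is known as a target of p53, was at 221, 228 and 100.2 CPM against 114, 139.7 and 130.1 CPM, where the guide 1 library of batch 3 lay below all guide 2 libraries (difference -0.52, SE 0.24; edgeR adjusted p = 0.714). The relatives of mir-10a and mir-196b had smaller differences: mir-10b differed by -0.06 and mir-196a by -0.28. mir-194, the neighbour of mir-192, differed by -0.10. Of the 5 tested miRNAs of the Hox loci none was called, 4 were lower with guide 2, and mir-615 was higher (difference 0.27), with a list median of -0.28. Over all 273 tested, 1 (0.366%) was called and 138 were lower, so these counts say nothing particular of the Hox loci. Scaled to the spike-ins, mir-10a and mir-9 had differences of 0.03 and 0.11, which were 0.60 and 0.52 below the median of all miRNAs on that scale.

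The remaining abundant miRNAs whose libraries did not overlap differed by little, and none passed the test. mir-126a, a miRNA of blood stem cells and endothelium, was at 3443, 3336 and 3274 CPM with guide 1 and at 3110.2, 2988 and 2920.5 CPM with guide 2 (difference -0.16, SE 0.09). mir-98, a let-7 relative, was at 208, 216 and 207 CPM against 182, 180.5 and 204 CPM (difference -0.15, SE 0.11). mir-106b (0.20) and mir-3535 (0.20) were the abundant miRNAs with no overlap that were higher with guide 2. Adjusted p in edgeR was 0.902 or more for all 4. With spike-in scaling mir-126a and mir-98 had differences of 0.47 and 0.45, which were 0.16 and 0.18 below the median of all miRNAs on that scale. The mir-106b difference rested on the guide 2 library of batch 3, without which it was 0.04.

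**Figure D2:**
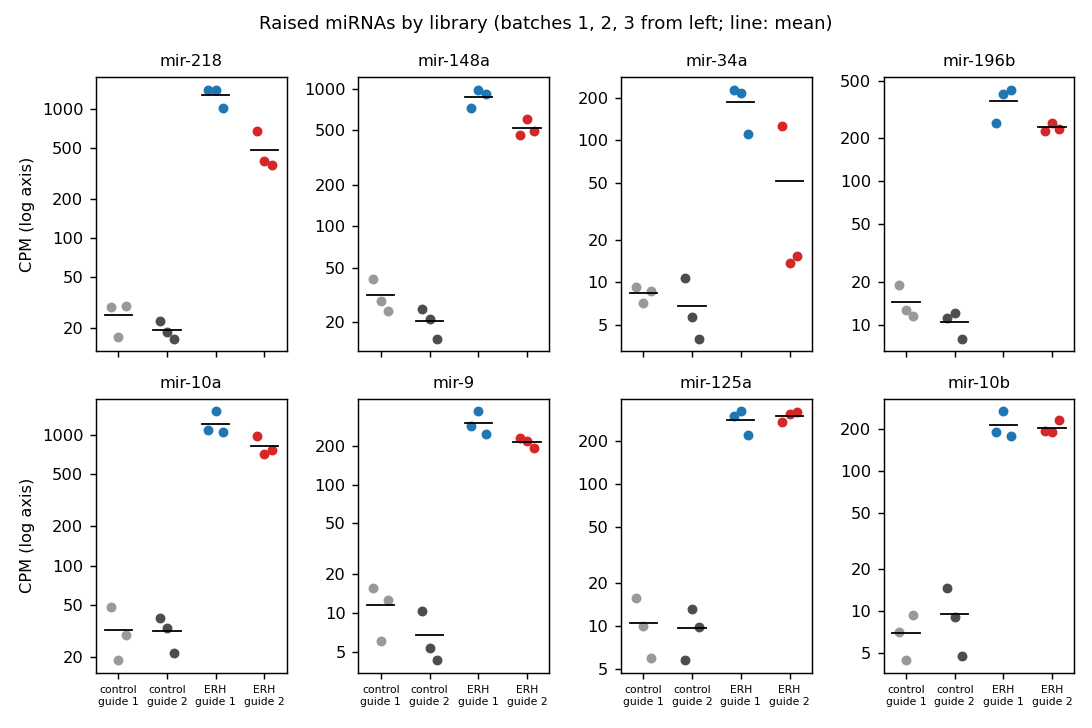
Level of 8 raised miRNAs in each library (CPM, log axis), for the control and ERH populations of guide 1 and guide 2, with batches 1, 2 and 3 from left and a line at the mean. Every ERH library lies above every control library in all 8 panels; mir-218 drops from guide 1 to guide 2 with no overlap, and for mir-34a the guide 2 library of batch 1 sits with the guide 1 libraries.

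The guide difference was also described by how a miRNA stood in SAFB against control, classes that use no ERH library. Of the 84 miRNAs higher in SAFB, 56 were higher and 28 lower with ERH guide 2 (median difference 0.10). Of the 66 lower in SAFB the split was 23 higher and 43 lower (median -0.03), and of the 123 not called in SAFB it was 56 and 67 (median -0.01), beside 135 and 138 over all 273. mir-218, one of the 84, was the only call in these classes. The split was also counted by size and level, with no test of a difference between classes: of those higher in SAFB by more than 1.5 on the log2 scale, 22 were higher and 17 lower with guide 2, while among the 14 of them with at least 100 CPM in an ERH population 2 were higher and 12 lower. For all miRNAs at that level the split was 49 and 72, and with spike-in scaling, which moves all miRNAs up together, 4 of the 14 were below 0 and 12 were below the median of all, as on the other 3 scales. The limits of 1.5 and 100 CPM were set with these values known, and the second used the libraries compared, so these are counts of mostly uncalled signs.

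Each ERH population was then set against the control population of its own guide number, so that the comparisons shared no library. ERH guide 1 gave 121 calls (44.3% of 273; 60 higher and 61 lower) and ERH guide 2 gave 122 (44.7%; 67 higher and 55 lower) in edgeR. Of these, 104 were called in both in the same direction, 54 higher and 50 lower, which is 86.0% of the guide 1 calls and 85.2% of the guide 2 calls. None was called in opposite directions. On the scale of total counts the splits were 83 higher and 31 lower with guide 1 and 96 higher and 26 lower with guide 2, so the balance between higher and lower calls depends on the scale. Among the 114 miRNAs of at least 100 CPM the fold changes of the 2 populations had a Pearson's r of 0.993 and a Spearman's rho of 0.971. Among all 273 the r was 0.926. With the control populations exchanged, r was 0.981 among the 114 and 0.935 among all 273. These are descriptions with no test, and the points of 1 axis share their libraries.

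**Figure D3:**
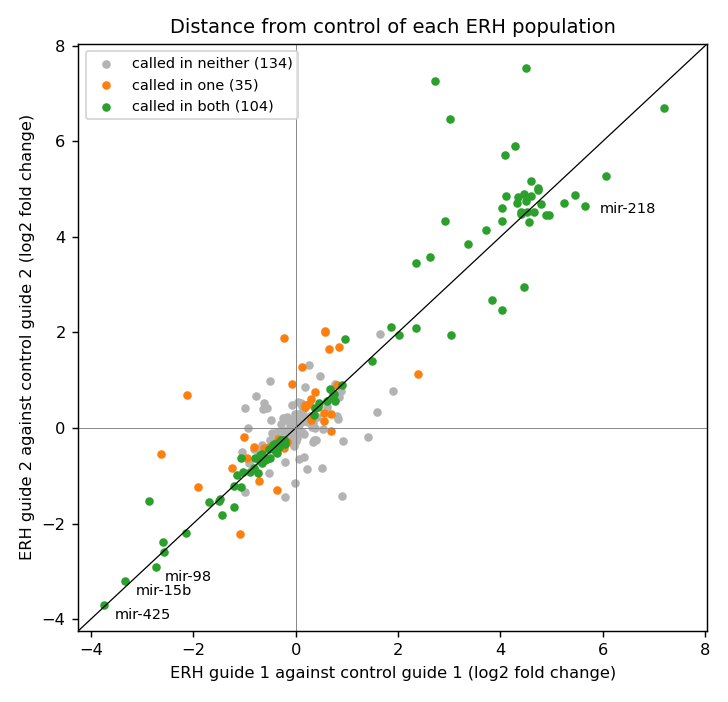
Log2 fold change of ERH guide 2 against control guide 2 (vertical axis) and of ERH guide 1 against control guide 1 (horizontal axis) for 273 miRNAs, with the line of equal change. Green points were called in both comparisons (104), orange in one (35) and grey in neither (134); the 104 lie at the lower left and the upper right, and mir-218 lies below the line.

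The sizes of the shared changes were set side by side. Over the 50 shared lower calls the median log2 fold change was -0.67 with guide 1 and -0.64 with guide 2, and 22 of them fell further with guide 1. Over the 54 shared higher calls the median was 4.04 with guide 1 and 4.39 with guide 2, and 24 of them rose further with guide 1. For 4 of the 54 a control population had no count, so the fitted rise depends on the prior count; with these at the lower bound that 3 counts over the control population give, the medians were 4.04 and 4.24. The test of the difference between the 2 changes called 0 miRNAs in edgeR and 0 in DESeq2, with 7 at an unadjusted p under 0.05. It used control populations paired by guide number, and the exchanged pairing was not tested.

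Some miRNAs were called in 1 population only. There were 17 with guide 1 only and 18 with guide 2 only, and 24 of these 35 (68.6%) had a mean under 100 CPM over the 18 libraries, beside 159 of the 273 tested (58.2%). In 31 of the 35 the fold changes had the same sign in both populations, with a median size of 0.90 where called and 0.37 in the other. None of the 35 was called between the ERH populations, and 6 had an unadjusted p under 0.05 there. A call in one population and not in the other is not by itself a difference between them.

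Among miRNAs of at least 100 CPM in ERH or control, the 6 that fell most are given next for either guide. mir-425, transcribed with mir-191, was at 258, 382 and 199.5 CPM with guide 1 and at 262, 331 and 382 CPM with guide 2, against a control mean of 3983 CPM. Its log2 fold change from control was -3.74 (SE 0.21) with guide 1 and -3.70 (SE 0.21) with guide 2, and the direct difference between the ERH populations was 0.21 (95% interval -0.18 to 0.61). mir-15b, the partner of mir-16-2 in an intron of Smc4 (chr3:69009772-69009835), was at 541, 552 and 477 CPM against 497, 615 and 416 CPM, down from 4961 CPM in control. It fell by 3.33 (SE 0.14) and 3.19 (SE 0.14), with a direct difference of -0.04 (95% interval -0.32 to 0.24). The libraries of the 2 guides overlapped for both miRNAs.

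mir-15a, the hairpin assisted by mir-16-1 in an intron of Dleu2 (chr14:61632027-61632110), is the miRNA whose altered form was used to sort the cells, so its fall is not independent of the sort. It was at 214, 193 and 139 CPM with guide 1 and at 142, 225 and 149 CPM with guide 2, from 1067 CPM in control. It fell by 2.58 (SE 0.19) and by 2.60 (SE 0.19), and the direct difference was -0.09 (95% interval -0.47 to 0.30). mir-130b fell by 2.59 and 2.38, mir-19a of the oncogenic mir-17-92 cluster by 2.14 and 2.20, and mir-98 by 2.72 and 2.90 in guide 1 and guide 2. All 12 changes of these 6 miRNAs had an edgeR adjusted p of at most 9.33e-10 against control.

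**Figure D4:**
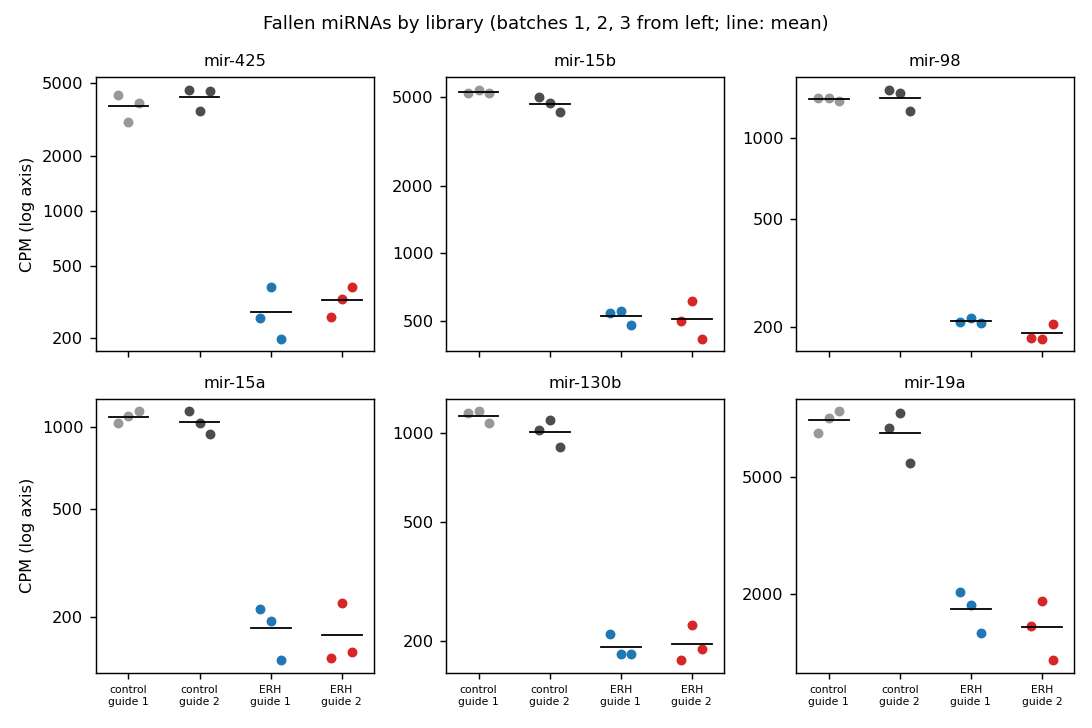
Level of 6 fallen miRNAs in each library (CPM, log axis), for the control and ERH populations of guide 1 and guide 2, with batches 1, 2 and 3 from left and a line at the mean. All ERH libraries lie below all control libraries in each panel, and the guide 1 and guide 2 points overlap in 5 of the 6 panels, mir-98 being the exception.

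mir-125a and mir-10b were also among the 6 that rose most of those with at least 100 CPM in ERH or control, and gave no call between guides. mir-125a was at 302, 327 and 223 CPM with guide 1 and at 276, 313 and 321 CPM with guide 2, from 10.1 CPM in control, and mir-10b was at 192, 268 and 179.8 CPM against 193, 189 and 231 CPM, from 8.27 CPM. Their libraries overlapped, with direct differences of 0.09 (95% interval -0.48 to 0.66) and -0.06 (95% interval -0.72 to 0.59). The log2 rise with guide 1 and guide 2 was 4.73 and 4.97 for mir-125a, 4.95 and 4.45 for mir-10b, 5.24 and 4.71 for mir-10a, 4.75 and 5.03 for mir-9, and 4.80 and 4.68 for mir-148a.

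Ratios of a hairpin to a neighbour within a library need no scaling between libraries and bear on cluster assistance. The mir-16 entry sums mir-16-1 and mir-16-2, so it is not the neighbour of mir-15a alone. On the log2 scale, mir-15a counts relative to mir-16 were -10.07, -10.16 and -10.68 with guide 1 and -10.74, -9.81 and -10.47 with guide 2, so the libraries overlapped. The means were -10.30 ± 0.33 and -10.34 ± 0.48 (SD, n = 3 each), and the difference of -0.03 had an exact two-sided permutation p of 0.9. The ratio in control libraries was -7.91 ± 0.03 and -8.05 ± 0.15 (SD, n = 3 each). For mir-425 to mir-191 the means were -6.26 ± 0.62 and -6.07 ± 0.56, with a difference of 0.19 (exact permutation p = 0.9). Over the alternatives, leaving out each library among them, the difference ran from -0.30 to 0.17 for mir-15a to mir-16 and from -0.03 to 0.55 for mir-425 to mir-191, so neither had a stable sign. The largest of the 9 differences was -0.31, for mir-192 to mir-194 (exact permutation p = 0.6), whose within-batch values ran from -1.28 to 0.84 and which was -0.79 to -0.07 over the alternatives. Libraries overlapped for all 9 pairs, and each Benjamini-Hochberg adjusted p was 1. With 3 libraries against 3 no exact p can go below 0.1, so these tests could not reach 0.05.

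**Figure D5:**
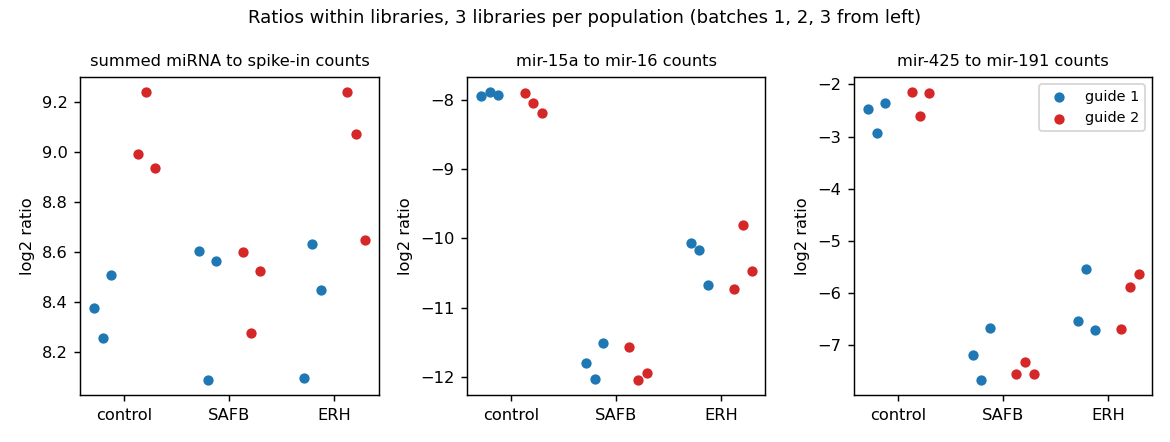
Log2 ratios within each library (vertical axes) for control, SAFB and ERH, guide 1 in blue and guide 2 in red, with batches 1, 2 and 3 from left: summed miRNA to spike-in counts, mir-15a to mir-16 and mir-425 to mir-191. The guides separate in the spike-in ratio of control and ERH and overlap in both hairpin ratios of ERH.

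The amount of miRNA per spike-in did not overlap between the ERH guides. The spike-ins are 4 synthetic small RNAs mixed into 400 ng of total RNA, of which 100 ng went into a library, so the ratio compares miRNA per total RNA. The log2 ratio was 8.10, 8.63 and 8.45 with guide 1 and 9.24, 9.07 and 8.65 with guide 2. The lowest guide 2 library lay just above the highest guide 1 library, the difference was 0.59 and the exact permutation p was 0.1, the smallest possible. Within batches 1, 2 and 3 it was 1.14, 0.44 and 0.20. The control guides differed in the same direction, by 0.68 (exact permutation p = 0.1), and the SAFB guides by 0.05 (exact permutation p = 0.9).

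How small a guide difference the data could have shown depended on the level. The 95% interval of the difference lay within 1 log2 unit either side of 0 for 171 of 273 miRNAs (62.6%) and within 0.5 for 103 (37.7%). Of the 58 at 1000 CPM and over, 57 lay within 1 and 55 within 0.5, and of the 87 under 10 CPM, 9 lay within 1 and 0 within 0.5. The median distance from the estimate to its bound was 0.23 at 1000 CPM and over and 1.10 under 10 CPM. For scarce miRNAs a difference between the ERH populations of 2-fold was thus mostly not detectable at this depth.

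By family, 25 lists held 102 tested miRNAs, of which 1, mir-218, was called between the ERH populations. It was also the 1 call among all 273 tested (0.366%). Of the 20 lists with at least 3 tested members, 19 had a median difference between -0.3 and 0.3, beside -0.0014 for all tested. The exception was the list of mir-9, mir-218, mir-153 and mir-129, at -0.49. Its 1 call of 4, beside 0.366% of all tested, was mir-218 again, lower with guide 2. These lists were chosen with results of these data known, and nothing particular is claimed of any.

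Values for some families of these cells are given next. The let-7 family with mir-98, regulators of differentiation, had differences between guides from -0.15 (mir-98) to 0.03 (let-7f) over 10 tested members, all with intervals within 0.5, and medians against control of -0.35 with guide 1 and -0.30 with guide 2. On the scale of total counts, which put the median of all miRNAs against control at 0.22 with guide 1 and 0.29 with guide 2, the let-7 medians were -0.08 and 0.03, so their direction depends on the scale. The 5 members of the mir-15 and mir-16 list, which restrain the cell cycle, differed by -0.11 to -0.02 and had medians against control of -0.69 with each guide, negative on all 4 scales tried. The mir-17-92 cluster differed by -0.23 (mir-18a) to 0.20 (mir-92a) over its 6 members, with medians against control of -0.55 and -0.56, which were -0.28 and -0.21 on the scale of total counts and -0.24 and -0.29 with spike-ins. The mir-29 family differed by -0.10 to 0.03, with medians against control of -0.30 and -0.21 that turned to -0.03 and 0.12 on total counts and to 0.0021 and 0.07 with spike-ins. No member of these lists was called between the guides, beside 0.366% of all tested, so the count of 0 says nothing particular of them.

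In the list of haematopoietic regulators, 8 members were tested and 0 called (0.366% of all tested were), from -0.16 (mir-126a) to 0.30 (mir-132). The 4 members of the mir-181 family, which act in B and T cell development, differed by -0.06 to 0.21 and had medians of 0.43 with guide 1 and 0.75 with guide 2 against control. The members went opposite ways against control: mir-181b fell (-0.70 and -0.57), mir-181a (0.38 and 0.42) and mir-181c (1.49 and 1.41) rose, and mir-181d was not called (0.48 and 1.09). The 3 tested Drosha-independent miRNAs, which do not need the Microprocessor, had differences of 0.20 (mir-320) to 0.42 (mir-877), with 0 called against the same background. The mir-148 and mir-152 list had mir-148b, the abundant member, at -0.10 and mir-152 at -0.27.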

How the data were processed

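Small RNA libraries were made with the QIAseq miRNA kit from total RNA with 4 spike-ins, per the labels' protocols. The authors deposited whole-number read counts, not normalized, for 1006 precursors. SAMtools is named in the submitters' processing notes; the aligner, build and handling of molecular identifiers are not given in the sources used here, so depth speaks to counting error only. Counts were tested with edgeR 4.0.16 (quasi-likelihood, R 4.3.3), with TMM scaling, filterByExpr (minimum count 10, by population), one mean per population over 18 libraries, and Benjamini-Hochberg adjustment over the 273 miRNAs kept, at 0.05. A miRNA high in 1 population could pass the filter through it. CPM were computed from the deposited counts on TMM library sizes. Spike-ins stayed out of library sizes and tests. Libraries of a population differed by more than counting noise (chi-square per degree of freedom 58.8 to 157.1), so none was counted as a repeat deposit of another; whether they repeat 1 RNA cannot be told. Within-library ratios used exact permutation tests. Alternatives were DESeq2 1.42.0, other scalings, filters, the batch block and leaving out each library. Recovery of known fold changes was checked on simulated counts, and no result given here rests on that check. Named were called miRNAs, those of at least 100 CPM without overlap, the 10 most abundant, and the 6 that rose and 6 that fell most of those with at least 100 CPM in ERH or control; mir-34a, mir-196b, mir-192 and those under other observations were named with their values in view. The miRNAs and lists were chosen with earlier results of these data known. Of the 273 miRNAs, 250 matched a RefSeq mature name.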

Additional observations from a re-analysis of the deposited data

How the results depend on the processing

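The ERH guide comparison gave 1 call, mir-218, under DESeq2 size factors, total counts, a mean of at least 100 counts, DESeq2 and the replicate block by batch (1 call with the block). It gave 110 with spike-in scaling, 4 without the filter (mir-218, mir-148a, mir-34a and mir-10a), 2 with only the 6 ERH libraries, and 1 to 2 when each library was left out, the 2 without ERH guide 2 replicate 1. mir-218 was called in all 14 alternatives, with differences from -1.73 to -0.76. The control guides gave 96 calls with spike-in scaling, and the test of the difference in rise gave 2 without the filter and 0 to 1 when each library was left out, the 1 without ERH guide 2 replicate 1. With a mean of at least 100 counts the calls against control fell to 74 with guide 1 and 76 with guide 2, as fewer miRNAs were tested. Spike-in scaling, which moved the median difference by 0.63, turned the sign of the guide difference for mir-126a (0.47), mir-98 (0.45), mir-16 (0.58), mir-142a (0.51), let-7a (0.64), let-7c (0.62), mir-93 (0.65), mir-15b (0.61) and mir-19a (0.46). A change of sign was counted only where a value was called or both values exceeded their standard error. Batch numbers pair libraries by label; deviations of same-batch ERH libraries correlated by -0.05, 0.22 and -0.10. The spike-in ratio was 0.59 with the block (exact sign-flip p = 0.25, the smallest 3 pairs allow). With 1 population per guide, spread between edited populations was not measured.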

Other observations

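Low-level miRNAs outside the naming rule were read after their values were seen. Under 100 CPM, 13 had an unadjusted p under 0.05 between the ERH guides in edgeR, 10 higher and 3 lower with guide 2, and none passed adjustment. Over all 273 tested, 18 (6.59%) had such a p, 10 higher and 8 lower. mir-1306, a hairpin in an exon of Dgcr8 (chr16:18284239-18284317), had counts of 11, 7 and 3 with guide 1 and of 28, 18 and 19 with guide 2, and 1.96 ± 0.91 and 5.71 ± 0.91 CPM (SD, n = 3 each) against 15.6 CPM in control. The libraries did not overlap, and the difference was 1.5 (SE 0.41; edgeR unadjusted p = 0.0015, adjusted p = 0.141). mir-3618, the other Dgcr8 hairpin, was at 1.59 and 3.69 CPM (difference 1.17; edgeR adjusted p = 0.714), beside 2.10 CPM in control. mir-200b and mir-429, neighbours that share a seed, were 0.75 and 0.76 higher with guide 2, with libraries that did not overlap (adjusted p = 0.714 each in edgeR). mir-200a of the same locus overlapped (difference 0.13), as did mir-200c (-0.15) and mir-141 (-0.14) of the same family. The other higher ones were mir-8091 (1.81), mir-3062 (1.78), mir-486a (1.15) and mir-486b (1.12), all without overlap, and mir-500 (0.66) and mir-1964 (0.45), which overlapped. mir-486a and mir-486b are near-identical copies. Their counts were the same in every library except ERH guide 2 of batch 3, at 20 and 19. They are not separate measurements, although each is counted in the numbers given here. Scarce miRNAs that were lower with guide 2 without overlap and had an unadjusted p under 0.05 in edgeR were mir-1934 (-0.72), mir-7661 (-1.58) and mir-6967 (-1.11), with adjusted p of 0.669, 0.669 and 0.714.

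Among precursors detected at all, 313 had a count in all 6 ERH libraries and 484 in at least 1 library of each guide. A further 60 were seen with guide 1 only and 76 with guide 2 only. The highest summed count among these was 19 and the median 2, so these precursors were at the limit of detection. Only 2 precursors were seen in all 3 guide 1 libraries and no guide 2 library, and 3 the other way round.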
